A study of Mus musculus with 6 samples.

Results

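The neurotrophic factors and receptors described here are 9 genes, taken by symbol from the 35415 genes of the deposited tables: the ligands Bdnf, Ntf3 and Gdnf, the receptors Ntrk2, Ntrk3 and Ret, the coreceptors Gfra1 and Gfra2, and the sorting receptor Sort1. All 9 were among the 17255 genes with enough counts to be tested. They were measured by RNA-seq in the lateral septum (LS) of wild-type female C57BL/6 mice, fed for 12 weeks either control chow or the same chow with olanzapine, an atypical antipsychotic, at 50 mg per kg of feed. The mice were about 8 weeks old on arrival. Each library was made from the pooled LS of 3 mice, with 3 pools per group, so all errors describe pools and the spread between mice within a pool cannot be seen. In the deposited tables the olanzapine columns are headed MetS with the number of the pool. Between 38208153 and 39868872 reads were counted on genes per pool. Olanzapine pool 1 stood apart from the others, with high levels of cortical neuron genes, and results that rest on it are given with and without it.

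Neurotrophins are secreted proteins that keep neurons alive and tune their synapses. BDNF acts on the receptor tyrosine kinase TrkB, encoded by Ntrk2, and NT-3, encoded by Ntf3, acts mainly on TrkC, encoded by Ntrk3. Sortilin, encoded by Sort1, binds the uncleaved precursors of these ligands and sorts proBDNF in the cell. GDNF belongs to another family: it binds the membrane-anchored coreceptor GFRα1, encoded by Gfra1, and the pair activates the kinase RET, while GFRα2, encoded by Gfra2, prefers the related ligand neurturin. Bdnf is transcribed from several promoters, and its transcription follows neuronal activity through calcium and CREB, a factor that binds the cAMP response element.

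Ntrk2 was the only one of the 9 genes that passed the test between the groups, and its level fell by 24.6% with olanzapine. That call was lost when any 1 of the 6 pools was left out, with adjusted p from 0.0612 to 0.143 in edgeR. Bdnf stood apart for another reason: olanzapine pool 1 held 5.19 times the mean of the other 5 pools. Without that pool the Bdnf log2 fold change turned from 1.03 to -0.44, and neither value passed the test. Gfra1 and Ret differed by -26.4% and -26.1% between olanzapine and control, and neither passed the test after adjustment.

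Upstream sequence is shown for the member that passed the test, Ntrk2, and for Bdnf and Gdnf, which lay at opposite ends in olanzapine pool 1. The 250 bases before RefSeq starts (build GRCm38.p6) were searched on both strands for the core of the cAMP response element, CGTCA, or TGACG on the other strand. Such a match was found in 17.8% of all 32851 windows. Among the members, 5 genes had 13 windows, and 2 of these windows held a match, 1 of the 7 of Bdnf and 1 of the pair of Gdnf. The whole palindrome TGACGTCA, which holds both strings of letters and so overlaps with them, occurred in 1.55% of all windows and in 0 of the 13. The matches are in capitals, and a match describes letters only. The sequences run 5′ to 3′ on the plus strand, on which all 3 genes lie, at chr2:109692186-109692435 for Bdnf, chr15:7809798-7810047 for Gdnf and chr13:58806319-58806568 for Ntrk2.
Bdnf: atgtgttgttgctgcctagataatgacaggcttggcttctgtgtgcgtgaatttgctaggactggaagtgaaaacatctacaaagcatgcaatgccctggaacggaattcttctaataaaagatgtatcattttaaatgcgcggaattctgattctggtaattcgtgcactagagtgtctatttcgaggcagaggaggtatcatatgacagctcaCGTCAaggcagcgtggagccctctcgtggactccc
Gdnf: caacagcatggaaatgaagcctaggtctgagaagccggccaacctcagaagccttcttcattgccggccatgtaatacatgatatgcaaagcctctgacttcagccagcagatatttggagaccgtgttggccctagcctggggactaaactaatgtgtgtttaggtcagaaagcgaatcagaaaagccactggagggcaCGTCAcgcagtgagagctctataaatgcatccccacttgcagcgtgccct
Ntrk2: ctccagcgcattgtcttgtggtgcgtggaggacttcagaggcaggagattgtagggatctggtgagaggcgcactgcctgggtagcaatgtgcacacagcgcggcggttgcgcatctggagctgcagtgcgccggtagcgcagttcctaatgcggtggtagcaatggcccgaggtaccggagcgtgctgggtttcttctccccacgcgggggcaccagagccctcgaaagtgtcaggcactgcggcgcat

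The matches began 35 bases before the start in Bdnf and 50 bases before it in Gdnf, and the Ntrk2 window had none. The counts are per gene, so they do not say which of the Bdnf starts was used in any pool.

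Levels between genes were compared per length, in FPKM (fragments scaled by transcript length and library size). Sort1 was the highest of the 9, with a median of 42.5 FPKM over the 6 pools, followed by Ntrk2 with 32.9, Gfra1 with 23.9 and Gfra2 with 16.0. Ntrk3 and Ret were lower, with medians of 6.18 and 4.48 FPKM. The ligands were the lowest, with 1.02 for Ntf3, 0.779 for Bdnf and 0.462 for Gdnf. Some neighbours in this order were not separated in every pool. Gfra1 lay above Gfra2 in 5 of 6 pools, Ntrk3 above Ret in 5, Ntf3 above Bdnf in 4 and Bdnf above Gdnf in 5. Only between Gfra2 and Ntrk3 and between Ret and Ntf3 did the ranges over the 6 pools not overlap.

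**Figure D1:**
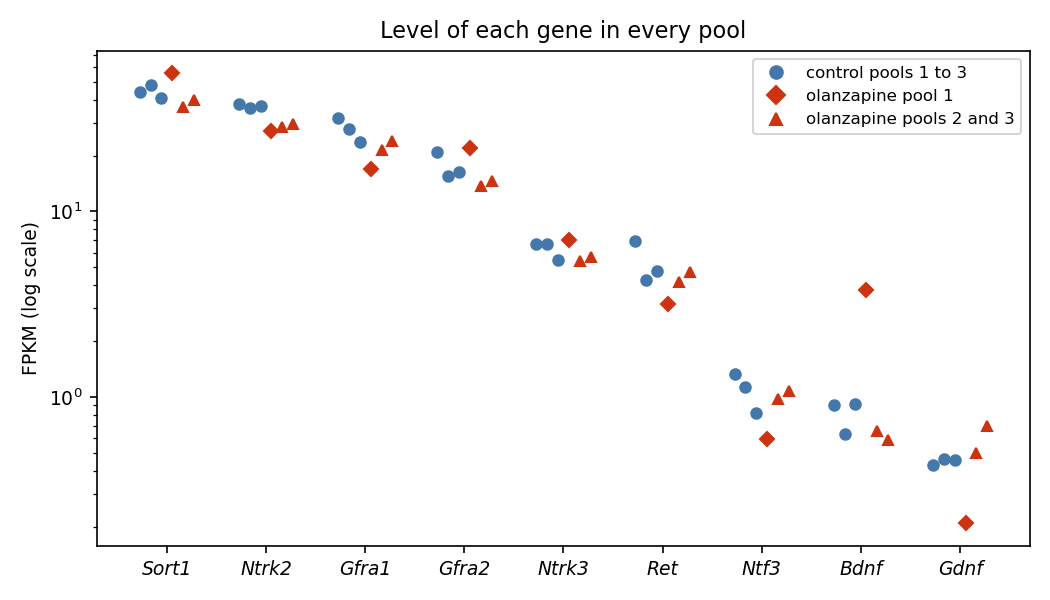
FPKM on a log scale (vertical axis) for the 9 genes (horizontal axis, ordered by median), with 1 point per pool: blue circles for the 3 control pools, a red diamond for olanzapine pool 1 and red triangles for olanzapine pools 2 and 3. The ligands lie at the right, and the diamond of Bdnf, at 3.78 FPKM, stands above every other Bdnf point.

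Differences between groups were tested on the counts with edgeR's quasi-likelihood test, with p-values adjusted over all 17255 genes. A gene was called at an adjusted p under 0.05, a limit passed by 2.32% of all genes in either direction, 1.83% as higher and 0.493% as lower in the olanzapine group. Among the 9 genes 1 was called, lower, and 0 were called with the fold limit of 2 that the study set for DEGs, which 1.01% of all genes passed. An unadjusted p under 0.05 was reached by 2 of the 9, both lower, against 17.6% of all genes in either direction and 8.4% as lower. The median log2 fold change of the 9 was -0.09, against 0.00 over all genes tested. Levels within a gene are given in CPM, counts scaled to a common library size with TMM factors, and a negative log2 fold change means a lower level with olanzapine. Fold changes carry their standard error (SE), and adjusted p-values are from the edgeR fit (Benjamini-Hochberg) where no other test is named.

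Ntrk2 encodes TrkB, the BDNF receptor, which neurons make in a full-length form with a kinase and astrocytes mainly in a truncated form without it. The gene lies on the plus strand of chromosome 13, from 58806569 to 59133970 (GRCm38, GENCODE M21), with 7 annotated protein-coding transcripts, and the counts per gene add these forms together. Gene positions throughout are from this annotation. Antisense genes overlap exons of Bdnf, Ntrk2, Gfra1 and Sort1 in it, and since the strand setting of the counting is not known, their reads cannot be told apart. Ntrk2 had 1141, 1078 and 1089 CPM in control pools 1 to 3 and 813, 811 and 871 CPM in olanzapine pools 1 to 3. The groups did not overlap, and in CPM olanzapine pool 1 lay between the other olanzapine pools, close to pool 2. In FPKM it was the lowest of the 6 pools, with 27.1 against 28.4 and 29.6 in olanzapine pools 2 and 3. From 1103 ± 33.3 CPM (SD, n = 3 pools) to 831 ± 34.1 CPM (SD, n = 3), the log2 fold change came to -0.41 (SE 0.08, adjusted p = 0.0363 in edgeR). No overlap between groups, in either direction, was seen in 24.3% of all genes tested, and among the 9 genes in Ntrk2 alone.

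The size of the Ntrk2 difference held in every fit that left out 1 pool, with log2 fold changes from -0.44 to -0.38, but its adjusted p in edgeR lay above the threshold in each of them, from 0.0612 without olanzapine pool 1 to 0.143 without control pool 1. Astrocyte markers lay lower in the olanzapine pools as well. The summed level of 10 astrocyte genes was 4599 to 5230 CPM in the control pools and 3753 to 4365 CPM in the olanzapine pools. Of the 10, 8 had a lower mean in the olanzapine group and 0 were called, with 5 at an unadjusted p under 0.05 in edgeR's test, and none was at 0 counts in any pool. In the fit without olanzapine pool 1, 1 of them was called lower, Sox9, with a log2 fold change of -0.46 (adjusted p = 0.0436 in edgeR). Their part in the Ntrk2 result was not tested, and in bulk tissue fewer cells of a type and less RNA per cell cannot be told apart.

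Ntrk3 (chr7:78175959-78738012, minus strand), the gene of the NT-3 receptor TrkC, had 163, 161 and 132 CPM in the control pools and 170, 126 and 136 CPM in the olanzapine pools. The groups overlapped over most of their range, with the highest value in olanzapine pool 1. Its log2 fold change was -0.08, with a 95% interval from -0.38 to 0.22 (adjusted p = 0.803 in edgeR), and it was -0.21 without olanzapine pool 1 (adjusted p = 0.302 in edgeR). The FPKM ratio of Ntrk2 to Ntrk3 within a pool was 5.68, 5.44 and 6.71 in the control group and 3.89, 5.24 and 5.19 in the olanzapine group. All 3 olanzapine ratios lay below the control ratios, a mean difference of -0.32 on the log2 scale (exact permutation test, two-sided, p = 0.1, the smallest that 3 against 3 pools can give). Without olanzapine pool 1, which had the lowest ratio, the difference was -0.18 (exact permutation test, p = 0.2).

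Sort1 (chr3:108284082-108361511, plus strand), the sorting receptor for proneurotrophins, had 324, 345 and 293 CPM in the control pools and 404, 255 and 284 CPM in the olanzapine pools. Olanzapine pool 1 was the highest of the 6 pools and the other olanzapine pools were the lowest. Over all pools the log2 fold change was -0.03, with a 95% interval from -0.41 to 0.35 (adjusted p = 0.948 in edgeR). Without olanzapine pool 1 it was -0.25 (SE 0.09, adjusted p = 0.183 in edgeR).

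**Figure D2:**
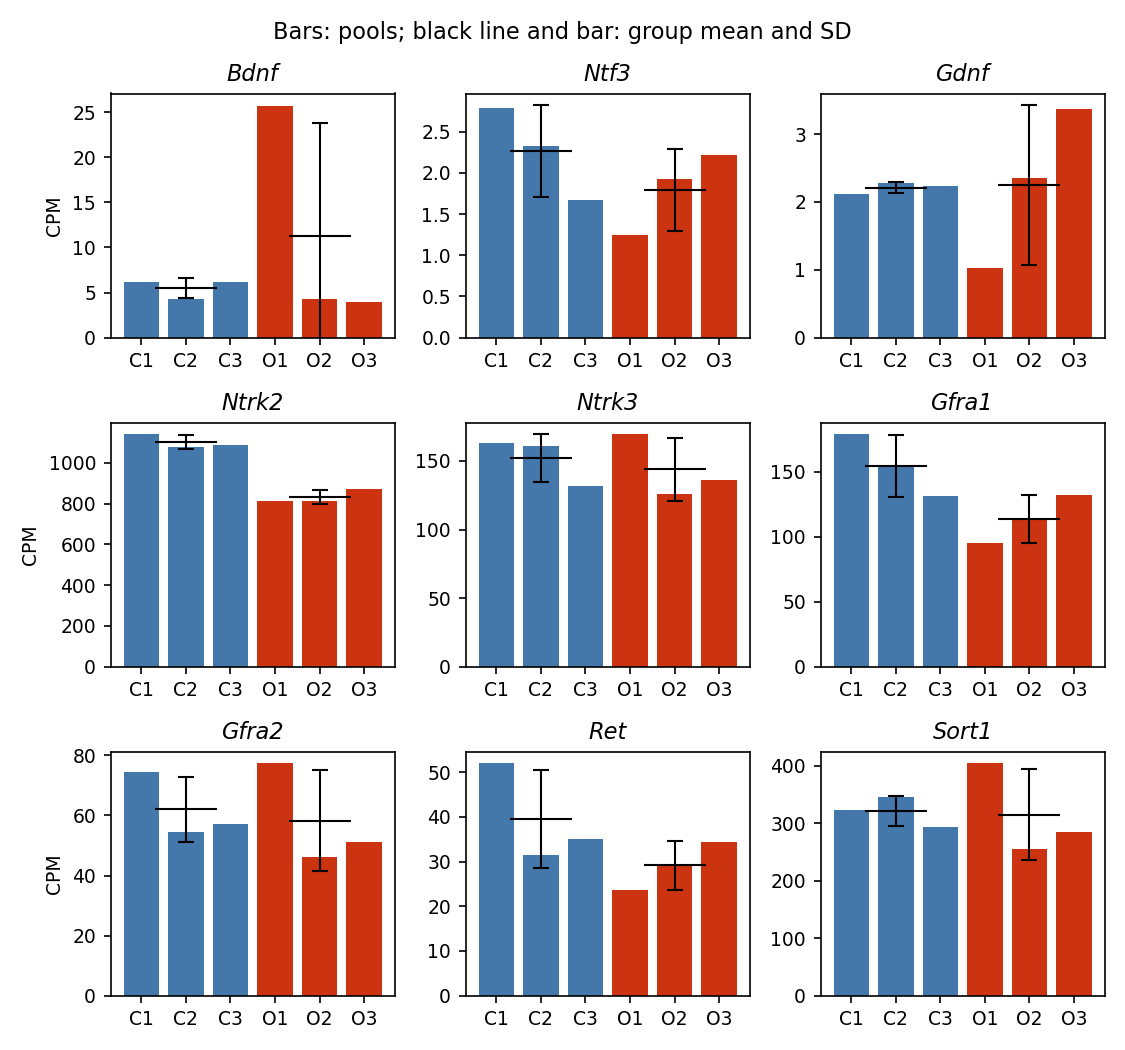
Bars give the CPM (vertical axis, from 0) of each of the 9 genes in control pools 1 to 3 (C1 to C3, blue) and olanzapine pools 1 to 3 (O1 to O3, red), and black lines give the group mean with its SD, cut at 0 for Bdnf. The 3 Ntrk2 bars of the olanzapine group all lie below the control bars, while the Bdnf mean of the olanzapine group, 11.3 CPM, rests on O1.

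Bdnf (chr2:109674700-109727007, plus strand), the ligand of TrkB, had low counts: 242, 169 and 243 reads in control pools 1 to 3 and 975, 168 and 152 reads in olanzapine pools 1 to 3. In CPM these were 6.19, 4.27 and 6.17 in the control group and 25.7, 4.25 and 3.91 in the olanzapine group. Olanzapine pool 1 was far above all others, and olanzapine pool 2 was level with control pool 2, with 168 against 169 reads. In FPKM olanzapine pool 2 lay above control pool 2, with 0.655 against 0.633. For Bdnf the log2 fold change was 1.03 (SE 0.68), and its 95% interval ran from -0.55 to 2.60 (adjusted p = 0.478 in edgeR). Without olanzapine pool 1 the direction turned, to -0.44 (SE 0.22, adjusted p = 0.317 in edgeR). Neither value passed the threshold.

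The high Bdnf of olanzapine pool 1 came with other transcripts. The summed level of 12 cortical glutamatergic neuron genes was 1421 CPM in that pool, 244 to 298 CPM in the control pools and 191 to 209 CPM in olanzapine pools 2 and 3, and 11 of the 12 had their highest value in olanzapine pool 1. Slc17a7, the vesicular glutamate transporter of cortical neurons, had 22.8, 45.7 and 55.1 CPM in the control pools and 659, 21.0 and 10.7 CPM in the olanzapine pools. The 20 immediate early genes, which are switched on by neuronal activity, summed to 1674 CPM in olanzapine pool 1, 710.5 to 972 CPM in the control pools and 915 to 1032 CPM in the other olanzapine pools, and 17 of the 20 were highest in olanzapine pool 1. No gene of either list was at 0 in any pool. Their part in the Bdnf values was not tested.

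**Figure D3:**
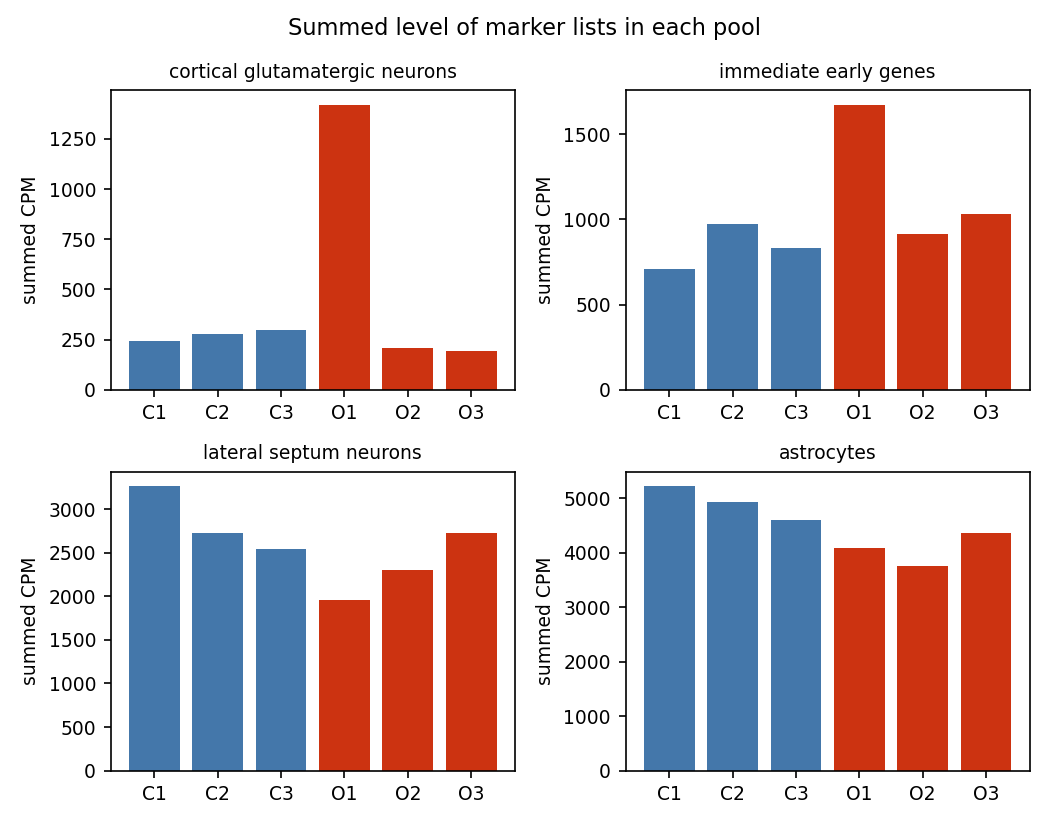
Summed CPM (vertical axes, from 0) of the genes of 4 lists in each pool, with control pools C1 to C3 in blue and olanzapine pools O1 to O3 in red. O1 stands out upward for cortical glutamatergic neurons (1421 CPM) and immediate early genes (1674 CPM) and is the lowest pool for the lateral septum list (1960 CPM), while all 3 olanzapine pools lie below the controls for astrocytes.

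Ntf3 (chr6:126101412-126166910, minus strand), the gene of NT-3, had 109, 92 and 66 reads in the control pools and 47, 76 and 86 reads in the olanzapine pools. In CPM this was 2.79, 2.33 and 1.68 against 1.24, 1.92 and 2.21, so the groups overlapped and olanzapine pool 1 was the lowest of the 6. For Ntf3 the log2 fold change was -0.34, with a 95% interval from -1.05 to 0.37 (adjusted p = 0.621 in edgeR), and it was -0.13 without olanzapine pool 1 (adjusted p = 0.862 in edgeR). The FPKM ratio of Bdnf to Ntf3 was 0.679, 0.562 and 1.13 in the controls, against 6.34, 0.676 and 0.540 with olanzapine (exact permutation test, two-sided, p = 0.9). Only in olanzapine pool 1 and control pool 3 did Bdnf exceed Ntf3.

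Gdnf (chr15:7810846-7837575, plus strand) had the lowest level of the ligands and was nearly equal in the control pools. Its counts were 83, 90 and 88 reads there and 39, 93 and 131 reads in the olanzapine pools, or 2.12, 2.27 and 2.23 CPM against 1.03, 2.35 and 3.37 CPM. The olanzapine pools thus lay on both sides of the controls, with an SD of 1.17 CPM against 0.0784 CPM in the control group. The means, 2.21 and 2.25 CPM, gave a log2 fold change of 0.03, with a 95% interval from -0.88 to 0.93 (adjusted p = 0.980 in edgeR). The value was 0.37 without olanzapine pool 1 (adjusted p = 0.481 in edgeR) and -0.39 without olanzapine pool 3 (adjusted p = 0.693 in edgeR).

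For each ligand, the 3 genes with the most similar log2 CPM over the 6 pools were sought among genes with a mean count of at least 50. For Bdnf these were Pls3, Nsmf and Efhd2, with Pearson's r from 0.994 to 0.996, for Ntf3 they were Abat, Ddah1 and Gm12758 (0.984 to 0.994), and for Gdnf St13, Inpp5f and Dlx6 (0.986 to 0.997). Without olanzapine pool 1, r was 0.933 to 0.948 for the 3 genes of Bdnf, 0.968 to 0.990 for those of Ntf3 and 0.941 to 0.986 for those of Gdnf. The genes closest to Bdnf were also highest in olanzapine pool 1 but spanned a narrower range: Efhd2 had 244 CPM in olanzapine pool 1 and 92.8 to 115 CPM elsewhere, Nsmf 369 against 273 to 295 CPM, and Pls3 138 against 93.0 to 103 CPM. Abat, which encodes the enzyme that breaks down GABA, had 768, 694 and 611 CPM in the control pools and 513, 645 and 673 CPM in the olanzapine pools, the order that Ntf3 showed. Dlx6, a homeobox gene of GABA neurons, had 16.1 CPM in olanzapine pool 1 and 28.6 CPM in olanzapine pool 3, the lowest and the highest values, as in Gdnf. These are descriptions over 6 pools, picked as the closest of 14278 genes.

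Gfra1 (chr19:58235604-58455909, minus strand) encodes the coreceptor that binds GDNF. It had 179, 154 and 131 CPM in the control pools and 94.9, 114 and 132 CPM in the olanzapine pools. The groups overlapped only in that olanzapine pool 3 lay just above control pool 3, and olanzapine pool 1 was the lowest. The log2 fold change was -0.44 (SE 0.15), and the 95% interval ran from -0.78 to -0.11 (unadjusted p = 0.0161, adjusted p = 0.171 in edgeR). The value was -0.33 without olanzapine pool 1 (adjusted p = 0.209 in edgeR).

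Ret (chr6:118151745-118197718, minus strand), the kinase that transmits the GDNF signal, had a difference of similar size with more spread. It had 52.0, 31.4 and 35.1 CPM in the control pools and 23.5, 29.6 and 34.4 CPM in the olanzapine pools. Control pool 1 was high and olanzapine pool 1 was low, and the remaining 4 pools lay within 29.6 to 35.1 CPM. The log2 fold change was -0.44 (SE 0.21, adjusted p = 0.320 in edgeR), -0.30 without olanzapine pool 1 and -0.19 without control pool 1.

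Gfra2 (chr14:70890120-70979838, plus strand), the coreceptor for neurturin, had 74.5, 54.5 and 57.2 CPM in the control pools and 77.4, 46.3 and 51.0 CPM in the olanzapine pools. Olanzapine pool 1 was here the highest of the 6, and the other olanzapine pools were the lowest. The log2 fold change was -0.09, with a 95% interval from -0.56 to 0.37 (adjusted p = 0.857 in edgeR), and -0.35 without olanzapine pool 1 (adjusted p = 0.200 in edgeR). The FPKM ratio of Gfra1 to Gfra2 was 1.52, 1.79 and 1.45 in the controls, against 0.776, 1.56 and 1.64 with olanzapine (exact permutation test, two-sided, p = 0.6), and only in olanzapine pool 1 did Gfra2 exceed Gfra1.

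In CPM olanzapine pool 1 thus took an end position among the 6 pools in 8 of the 9 genes, all but Ntrk2. The exception rested on 813 against 811 CPM in olanzapine pool 2, and in FPKM olanzapine pool 1 was the lowest for Ntrk2 too. This pool was the highest or lowest in 45.1% of all genes tested, the largest such share of the 6 pools, where the others had 25.6% to 34.4%. It was highest for Bdnf, Ntrk3, Gfra2 and Sort1 and lowest for Ntf3, Gdnf, Gfra1 and Ret. The 12 genes of the lateral septum list, which include general markers of GABA neurons and Otx2, a gene of choroid plexus too, summed to 1960 CPM in this pool, 2539 to 3269 CPM in the control pools and 2306 to 2731 CPM in the other olanzapine pools. Of the 12, 9 were lowest in olanzapine pool 1, and all 12 were detected in every pool. Over the groups 11 of the 12 had a lower mean with olanzapine, 4 had an unadjusted p under 0.05 in edgeR's test and 0 were called, and the median log2 fold change was -0.36, or -0.22 without olanzapine pool 1. Their part in the low Gfra1, Ret, Gdnf and Ntf3 values of this pool, and in the group differences of Gfra1 and Ret, was not tested.

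Without olanzapine pool 1, 17687 genes could be tested and 0 of the 9 were called by edgeR's quasi-likelihood test, against 2.87% of all genes, 1.76% as higher and 1.11% as lower. An unadjusted p under 0.05 was reached by 4 of the 9, Ntrk2, Gfra1, Gfra2 and Sort1, all lower, where 10.1% of all genes were lower at that limit. All genes but Gdnf, that is 8 of 9, had a lower mean in the olanzapine group, against 50.3% of all genes, and the median log2 fold change of the 9 was -0.30, against 0.00 over all genes. In CPM the 2 olanzapine pools lay outside the range of the controls in 5 of the 9, lower for Bdnf, Ntrk2, Gfra2 and Sort1 and higher for Gdnf. For Bdnf this rested on 168 against 169 reads and did not hold in FPKM, while it held for the other 4. Such a separation was seen in 37.6% of all genes in CPM. Markers of neighbouring tissue differed in these pools as well. The 12 cortical glutamatergic neuron genes summed to 191 to 209 CPM in olanzapine pools 2 and 3 and to 244 to 298 CPM in the control pools, with a median log2 fold change of -0.43 without olanzapine pool 1. Among them Slc17a7 had a log2 fold change of -1.38 in that fit (adjusted p = 0.0999 in edgeR). The 10 striatal projection neuron genes summed to 2354 and 2279 CPM in olanzapine pools 2 and 3 and to 1159 to 1981 CPM in the control pools, with Rgs9 called higher without olanzapine pool 1. In that fit edgeR also called 1 of 10 astrocyte genes lower, Sox9 (log2 fold change -0.46), and 1 of 7 endothelial and pericyte genes lower, Pecam1 (-0.81). Of 7 microglial genes 1 was called higher, C1qa (0.34). The median log2 fold changes of these lists in that fit were -0.16, -0.35 and 0.11. The part of these markers in the differences was not tested.

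**Figure D4:**
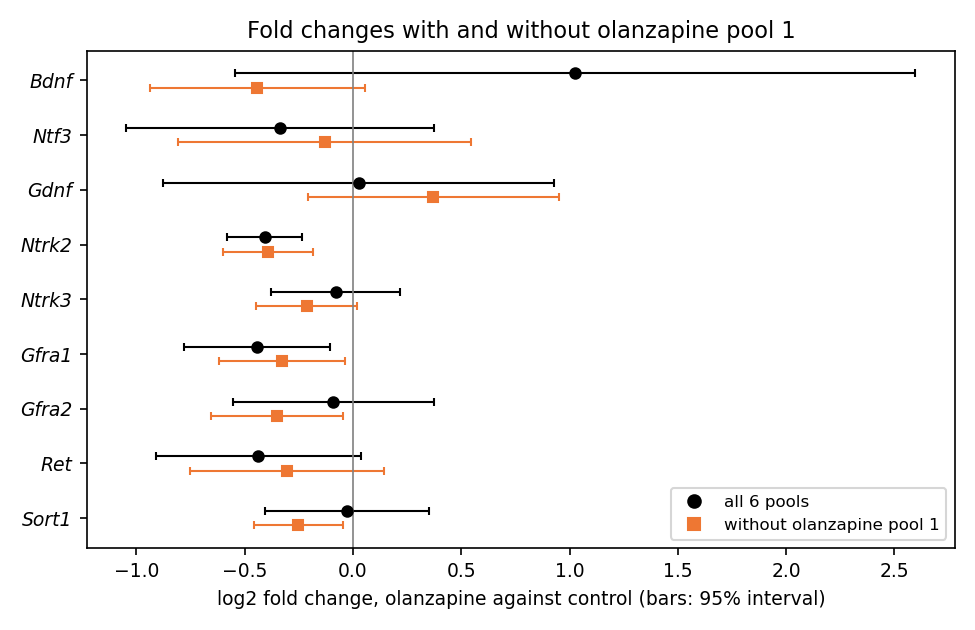
Log2 fold change of the olanzapine against the control group (horizontal axis) with its 95% interval (bars) for the 9 genes, over all 6 pools (black circles) and without olanzapine pool 1 (orange squares). Bdnf moves from 1.03 to -0.44 and its interval shrinks, while Ntrk2 stays at -0.41 and -0.39.

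The other receptors and ligands of the neurotrophin family were drawn from a list of 8 genes, all tested. In it 1 gene was called lower and 0 higher, 7 had a lower mean, and the median log2 fold change was -0.33. The called gene was Sorcs2, which encodes a receptor of the sortilin family that binds proBDNF together with p75. Sorcs2 had 93.2, 88.0 and 83.4 CPM in the control pools and 58.2, 68.1 and 69.3 CPM in the olanzapine pools, a log2 fold change of -0.44 (SE 0.09, adjusted p = 0.0474 in edgeR), and no value overlapped. The Sorcs2 call was lost when any 1 control pool or olanzapine pool 2 was left out. It was also lost under the replicate block and with limma on log2(FPKM + 0.1). In some further alternatives, given below with Il6st, at least 1 of the calls of Sorcs2 and Il6st was lost. Sorcs2 was called without olanzapine pool 1 (adjusted p = 0.0433 in edgeR), where 2 further sortilin-family genes joined it, Sorcs3 with a log2 fold change of -0.54 (adjusted p = 0.0339 in edgeR) and Sorl1, whose product sorts the amyloid precursor protein, with -0.50 (adjusted p = 0.0161 in edgeR). Over all 6 pools Sorl1 was not called, and olanzapine pool 1 was its highest with 321 CPM, against 247 to 281 in the controls and 187 and 192 CPM in the other olanzapine pools.

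Ngfr, which encodes the shared neurotrophin receptor p75, had 12.5 to 26.8 CPM over the 6 pools and was not called. Ngfr is a mark of the cholinergic neurons of the medial septum. The 6 cholinergic marker genes summed to 62.9 to 105 CPM in the control pools and 65.6 to 81.1 CPM in the olanzapine pools, with 0 called.

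Of 9 other genes of the GDNF family, 5 could be tested, and 0 were called, with 2 at an unadjusted p under 0.05 in edgeR's test. These were Gfra4, the coreceptor for persephin, which had 30.4 to 33.0 CPM in the control pools and 37.8 to 40.4 CPM in the olanzapine pools (adjusted p = 0.0807 in edgeR), and Sdc3, a syndecan that binds GDNF, with 293 to 342 CPM against 256 to 266 CPM (adjusted p = 0.132 in edgeR). Neither overlapped between the groups. Gfral, the receptor of GDF15, had 0 counts in all 6 pools, and Pspn had 1 count in 1 control pool. Gdf15 itself had 4 to 20 counts.

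The proteins that cleave, package and release proneurotrophins were represented by 18 genes, of which 16 were tested and 1 was called, higher. This was Plg, the precursor of plasmin, a protease that can cleave proBDNF outside cells. Plg had 6, 8 and 4 reads in the control pools and 105, 190 and 129 reads in the olanzapine pools, a log2 fold change of 4.55 (SE 0.38, adjusted p = 0.00160 in edgeR). Plg is made mainly by the liver, and it rose beside hepatocyte genes: 9 of 10 hepatocyte markers were called higher, with the smallest adjusted p-values for Apoa1, Ahsg, Serpina3k, Serpina1a and Alb, and without Ttr, which choroid plexus makes too, they summed to 11.3 to 21.0 CPM in the control pools and 267 to 332 CPM in the olanzapine pools. Plat, which encodes the tissue activator of plasminogen, had 29.6 to 31.5 CPM in the control pools and 29.1 to 31.5 CPM in the olanzapine pools, a log2 fold change of -0.02 (adjusted p = 0.931 in edgeR). The convertases Furin and Pcsk1 were not called.

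Downstream of the receptors, 44 adaptors, kinases and targets of Trk and RET signalling were tested, and 0 were called in edgeR's quasi-likelihood test, with 12 at an unadjusted p under 0.05. The directions were even, with 22 higher and 22 lower means and a median log2 fold change of 0.00. Among further neurotrophic factors and their receptors 13 of 14 genes were tested and 1 was called. This was Il6st, which encodes gp130, the signalling subunit shared by the receptors of CNTF and LIF. Il6st had 125, 123 and 115 CPM in the control pools and 85.3, 81.8 and 94.3 CPM in the olanzapine pools, with no overlap and a log2 fold change of -0.47 (adjusted p = 0.0233 in edgeR). The Il6st call was lost in the alternatives named above for Sorcs2. Only 1 gene of the pathway lists was called lower in some others, so at most 1 of Sorcs2 and Il6st kept its call there. These were the fit without olanzapine pool 3, the filter on a mean of at least 50 counts, and limma on log2(FPKM + 1), filtered or not. Without olanzapine pool 1 Il6st was called, together with Erbb4, a neuregulin receptor, which had 89.3, 87.1 and 77.6 CPM in the control pools and 69.5, 53.7 and 52.8 CPM in the olanzapine pools. Erbb4 had a log2 fold change of -0.67 in that fit (adjusted p = 0.00553 in edgeR) and -0.53 over all pools (adjusted p = 0.0646 in edgeR).

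The immediate early genes were the list closest to the activity that drives Bdnf. Of 20 tested, 17 had a higher mean in the olanzapine group, 1 was called higher and 0 lower, and the median log2 fold change was 0.39 over all pools and 0.12 without olanzapine pool 1. Npas4, a transcription factor induced by calcium that acts on Bdnf promoters, had 12.1, 18.0 and 12.5 CPM in the control pools and 34.3, 27.5 and 32.2 CPM in the olanzapine pools. All olanzapine pools lay above the controls, with a log2 fold change of 1.14 (SE 0.17, adjusted p = 0.0155 in edgeR), and 1.07 without olanzapine pool 1 (adjusted p = 0.0197 in edgeR). The calls in these pathway lists depended on single pools. Against 2 genes called lower, 0 were called lower when any 1 control pool or olanzapine pool 2 was left out, and 1 without olanzapine pool 3. Against 2 called higher, Plg and Npas4, 1 was called higher without control pool 1, control pool 3 or olanzapine pool 3 and under the replicate block. At least 1 of Plg and Npas4 thus lost its call there.

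In edgeR's quasi-likelihood test over all 6 pools, 0 genes were called among the markers of oligodendrocytes, oligodendrocyte precursors, microglia, endothelium and pericytes, choroid plexus and meninges, with 6 genes of these lists at an unadjusted p under 0.05. Choroid plexus genes varied widely in both groups, with sums from 104 to 7592 CPM in the control pools and from 66.7 to 4775 CPM in the olanzapine pools.

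**Figure D5:**
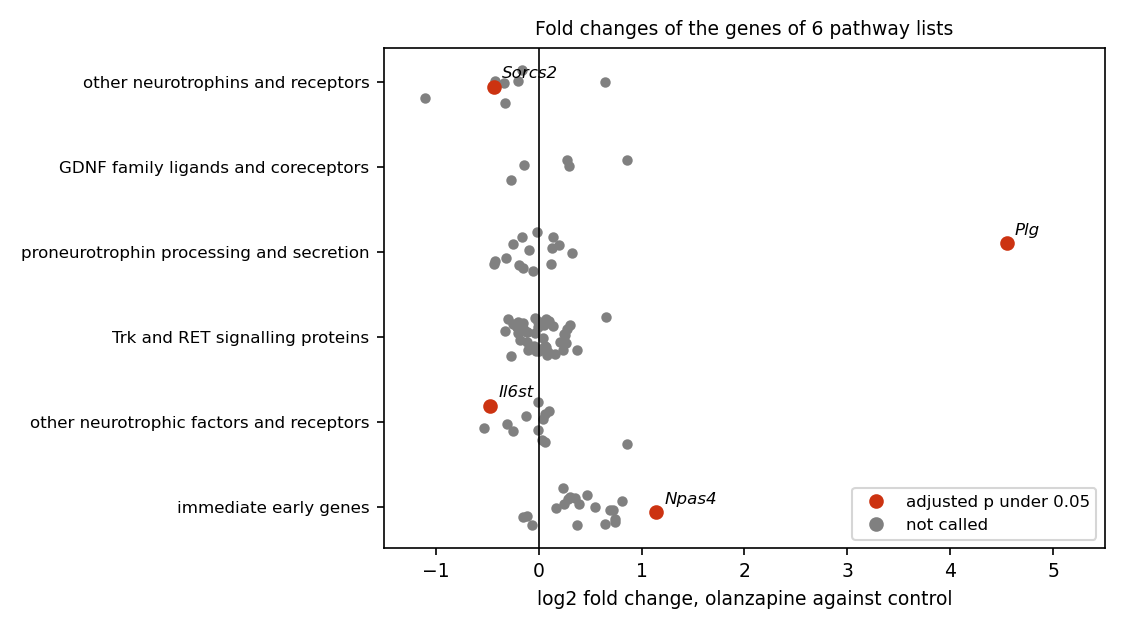
Log2 fold change of the olanzapine against the control group (horizontal axis) for the tested genes of 6 lists (rows), with 1 point per gene and list (Artn is in 2 of them), red and named where the adjusted p was under 0.05. Plg lies far to the right at 4.55, Npas4 at 1.14, and Sorcs2 and Il6st lie to the left at -0.44 and -0.47, while 0 of the 44 Trk and RET signalling genes are red.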

How the data were processed

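Total RNA of pooled LS tissue was made into libraries with the VAHTS Universal V6 kit. Per the submitters' processing notes, fastp, HISAT2 and HTSeq were used for trimming, alignment and counting on build mm10. The authors deposited raw counts per gene and FPKM, fragments scaled by transcript length and library size. Strand setting, annotation and versions are not given in the sources used here, so reads of antisense genes that overlap an exon of Bdnf, Ntrk2, Gfra1 or Sort1 cannot be told apart from theirs. Unused per-sample columns numbered 0. Depth was 38208153 to 39868872 counted reads per pool.

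Counts were filtered with filterByExpr (minimum count 10, minimum total 15), scaled with TMM and tested by edgeR's quasi-likelihood F-test (edgeR 4.0.16, R 4.3.3), modelling only the group. The standard error is the fold change divided by the square root of F. On simulated counts of 17255 genes with 200 changed by 1.5 on the log2 scale, the test called 81.0% of them and 10 of 16795 unchanged genes. The log2 fold changes of all 9 genes were smaller than 1.5, so this share does not say how often changes of their size are called. FPKM ratios were compared by exact permutation over pools, and log2 CPM used a pseudocount of 0.1. Positions are from GENCODE M21. Named are the 9 genes, the genes called over all 6 pools in lists of pathway and marker genes (at most the 5 with the smallest adjusted p of a list), and the 3 genes most similar to each ligand. Other genes of the lists (Ngfr, Gfra4, Sdc3, Gfral, Pspn, Gdf15, Plat, Furin, Pcsk1, Erbb4, Sorcs3, Sorl1, Slc17a7, Rgs9, Sox9, Pecam1, C1qa, Ttr, Otx2) were chosen after their values were seen. The 9 genes and the lists were chosen with earlier results of these data known. The alternatives were DESeq2 1.42.0, RLE or upper-quartile factors, other filters, limma 3.58.1 on log2 FPKM, the replicate number as a block, and leaving out each pool. P-values set the difference between groups against the spread between pools, which edgeR estimates with information shared across genes.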

Additional observations from a re-analysis of the deposited data

How the results depend on the processing

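Ntrk2 stayed lower in all 15 alternatives, with log2 fold changes from -0.44 to -0.37. Its call was lost in 8: the 6 fits without 1 pool, the replicate block and limma on log2(FPKM + 0.1). The number of the 9 genes called was therefore 0 in each of these, and the range without 1 pool was 0 to 0. The replicate block gave Ntrk2 an adjusted p of 0.103 with edgeR, and limma on log2(FPKM + 0.1) gave 0.0796, while DESeq2 gave 1.25e-05. The labels number the pools but name no pairing. Deviations of same-numbered pools correlated by 0.0111, 0.0548 and -0.264, and those of differently numbered pools by -0.369 to 0.354. With so few pools these values neither show a pairing nor exclude one. The block lowered the calls over all genes from 401 to 140. DESeq2 called 961 genes, limma on log2(FPKM + 0.1) 267, and the fits without 1 pool 131 to 508.

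Gfra1, Ret and Ntf3 kept their direction in all 15 alternatives. Bdnf reversed once, to -0.44 without olanzapine replicate 1, and shrank to 0.46 under the replicate block, 0.36 with limma on log2(FPKM + 1) and 0.47 with limma on log2(FPKM + 0.1). Gdnf, near 0, reversed under the replicate block (-0.11), limma on log2(FPKM + 0.1) (-0.060), and without control replicate 1, olanzapine replicate 2 or olanzapine replicate 3 (down to -0.39). Leaving out 1 pool also reversed Ntrk3 (up to 0.0085), Gfra2 (up to 0.059) and Sort1 (up to 0.10). The log2 fold changes over the fits without 1 pool ran from -0.44 to 1.43 for Bdnf, -0.52 to -0.13 for Ntf3, -0.39 to 0.37 for Gdnf, -0.21 to 0.0085 for Ntrk3, -0.35 to 0.059 for Gfra2 and -0.25 to 0.10 for Sort1.

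Genes called in the pathway lists numbered 4 (2 higher, 2 lower), 9 with DESeq2, 1 under the replicate block and 2 with limma on log2(FPKM + 0.1), and 1 to 7 without 1 pool (7 without olanzapine replicate 1, 1 or 2 without any of the other pools). Without 1 pool the log2 ratio of Ntrk2 to Ntrk3 ran from -0.40 to -0.18, that of Gfra1 to Gfra2 from -0.52 to 0.019 and that of Bdnf to Ntf3 from -0.32 to 1.46, the last 2 reversed without olanzapine replicate 1. The causes were not tested. Gdnf had few reads, 39 to 131 per pool, and the part of this in its reversals was not tested.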
